A study of Mus musculus with 8 samples.

Results

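Interferon-stimulated genes were followed in B220+CD3+ cells sorted from the spleen, from Faslpr mice that lacked or carried Eaf2. The set was a list of 40 mouse genes that interferons are known to induce, and it was matched by symbol to a table of 17384 genes. The table held 38 of them, and all 38 were among the 12340 genes with enough reads to test. Mx1 and Mx2, the remaining 2, were not analysed here. Faslpr mice carry the lpr mutation of Fas, a death receptor gene, and develop a lupus-like disease in which T cells that carry the B cell isoform of CD45 accumulate. Eaf2 encodes a partner of the ELL transcription elongation proteins. All 8 libraries came from Faslpr cells, 4 titled EAF2Faslpr and 4 titled Faslpr. The series title names EAF2 deficiency, and the first group is called Eaf2-/-Faslpr here. No source used here gives the strain, age or sex of the mice, the design of the Eaf2 allele or any pooling of animals. The labels do not say whether replicates came from separate mice, so each p-value reflects the spread among these libraries alone, and that spread may be technical.

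Eaf2, the targeted gene, averaged 4.74 ± 1.05 CPM (SD, n = 4) in Eaf2-/-Faslpr and 25.5 ± 4.50 CPM in Faslpr. CPM are reads per megaread of the tested genes after scaling between libraries. The libraries ran from 4.02 to 6.29 CPM in the first group and from 20.7 to 31.5 CPM in the second, without overlap (exact two-sided permutation p = 0.0286, the smallest that 70 orderings allow). Libraries held 15.6 to 18.6 megareads, so 3 reads were worth 0.161 to 0.193 CPM. All 9 T cell markers were tested and none passed in either direction, with summed levels of 4024 to 4257 CPM against 3774 to 4598 CPM. Zap70 came closest, at 328 ± 15.4 CPM against 394 ± 37.6 CPM without overlap (adjusted p = 0.0587 by edgeR's quasi-likelihood test). Thy1 leaned higher, at 292 ± 25.1 CPM against 234 ± 30.8 CPM (adjusted p = 0.0738 by the same test). The 12 B cell markers all passed as higher in Eaf2-/-Faslpr, beside 7.14% of all tested genes. Their sums were 333 to 652 CPM against 66.6 to 138 CPM in Faslpr. Counts of the other marker lists likewise stand beside 7.14% higher and 4.96% lower over all tested genes. Of 11 macrophage markers, 10 were tested and 3 were higher, and the sums were 63.3 to 156 CPM against 49.3 to 63.6 CPM. Lyz2, 1 of the 3, stood at 6.36, 10.5, 75.1 and 8.39 CPM in Eaf2-/-Faslpr replicates 1 to 4. Its call held in 5 of the 8 fits that left out a library. Cd68, the most abundant of the list, had no call, at 27.2 ± 3.70 CPM against 32.0 ± 5.56 CPM. Of 8 neutrophil markers, 4 had too few reads to test, among them Ly6g, and none of the other 4 passed. All 8 summed to 12.3 to 91.3 CPM against 11.9 to 16.3 CPM. Siglech and Klk1, 2 of 6 markers of plasmacytoid dendritic cells, had too few reads to test, while Irf8 and Ccr9 passed as higher. Tcf4 and Cox6a2 had no call. Tcf4 was at 38.1 ± 4.75 CPM against 30.3 ± 10.6 CPM, and Cox6a2 leaned lower, at 2.81 ± 1.21 CPM against 5.45 ± 2.15 CPM. The 6 summed to 99.0 to 122 CPM against 74.6 to 91.0 CPM. Most of each sum came from Tcf4 and from Irf8, which was at 65.2 ± 9.09 CPM against 46.6 ± 3.27 CPM and is also expressed by B cells. Ccr9 was at only 1.53 ± 0.390 CPM against 0.615 ± 0.178 CPM. The 5 plasma cell markers summed to 639 to 783 CPM against 805 to 930 CPM, and 1 of them, Xbp1, was lower. The rest had no call. Sdc1, the most abundant, was at 365 ± 31.8 CPM against 439 ± 43.9 CPM. Jchain was at 78.3 ± 17.5 CPM against 109 ± 67.5 CPM, and Mzb1 at 22.8 ± 5.06 CPM against 24.8 ± 13.2 CPM. Both overlapped between the groups, and most of each plasma cell sum came from Sdc1 and Xbp1. Eaf2-/-Faslpr replicate 3 had the highest sums for B cells, macrophages and neutrophils. Each sum runs over all listed genes in the table. The part of these other cells in the results that follow was not tested, and in bulk RNA fewer cells of a type and less RNA per cell cannot be told apart.

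Type I interferons, made on contact with viral or self nucleic acids, signal through the receptor IFNAR and the kinases JAK1 and TYK2. STAT proteins then join IRF9 and bind interferon-stimulated response elements (ISRE), next to antiviral genes such as the IFIT and OAS families. Interferon gamma, a product of activated T cells, acts mainly at gamma-activated sites (GAS), and the guanylate-binding proteins (GBP) and immunity-related GTPases such as IRGM1 are classic responders to it. A raised level of interferon-stimulated genes in blood cells is a well known feature of lupus.

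The sequence motifs of both routes were looked up in RefSeq promoter windows (GRCm38.p6), each from 250 bases before to 50 bases after a transcription start. Windows existed in that table for 30 of the 40 genes, 37 windows in all. The ISRE and GAS cores were searched on both strands. Matches of the 2 cores can share bases, as they do for Bst2. An ISRE match was present in 19 of the 37 windows (51.4%), against 3.44% of all 32851 windows of that table. A GAS match was present in 8 of the 37 windows (21.6%), against 8.30% of all windows. IFIT and OAS genes had an ISRE match in 5 of 9 windows, and GBP and IRGM genes in 5 of 6. A GAS match was found in 2 of 9 windows of the first class and in 2 of 6 of the second. A match describes these letters only. The stretches below are shown because they let the IFIT and ISG15 type of promoter be set beside those of the GBP, IRGM1 and TRIM30 genes described later. They run in the direction of transcription, with capitals marking ISRE and GAS matches on either strand.
Isg15: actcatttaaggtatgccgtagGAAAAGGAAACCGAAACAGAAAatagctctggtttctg
Ifit1: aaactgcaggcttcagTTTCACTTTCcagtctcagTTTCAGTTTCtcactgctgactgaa
Irgm1: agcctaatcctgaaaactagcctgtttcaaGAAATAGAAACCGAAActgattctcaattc
Trim30a: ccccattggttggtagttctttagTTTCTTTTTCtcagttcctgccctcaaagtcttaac
Gbp5: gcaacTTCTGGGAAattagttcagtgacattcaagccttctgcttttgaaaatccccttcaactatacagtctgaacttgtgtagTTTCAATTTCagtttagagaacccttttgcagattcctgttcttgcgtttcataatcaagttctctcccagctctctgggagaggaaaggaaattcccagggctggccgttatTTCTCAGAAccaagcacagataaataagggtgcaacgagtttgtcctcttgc
Gbp7: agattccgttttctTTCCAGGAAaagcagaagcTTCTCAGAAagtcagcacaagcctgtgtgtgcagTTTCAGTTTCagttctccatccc
Gbp3: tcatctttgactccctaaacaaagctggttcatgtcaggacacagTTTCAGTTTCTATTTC
Gbp2: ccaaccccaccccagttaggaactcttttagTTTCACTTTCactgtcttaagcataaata

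The Isg15 stretch lies at chr4:156200859-156200918 on the minus strand and holds 3 ISRE matches that share bases, and the Ifit1 stretch at chr19:34640769-34640828 on the plus strand holds 2. Irgm1 has 2 matches at chr11:48871421-48871480 on the minus strand. In Trim30a, at chr7:104465194-104465253 on the minus strand, there is 1 match, and the other start listed for that gene also has 1 match in its window. The 4 Gbp stretches come from neighbouring genes on the plus strand. They lie at chr3:142496684-142496933 for Gbp5, chr3:142530216-142530305 for Gbp7, chr3:142559954-142560014 for Gbp3 and chr3:142620573-142620632 for Gbp2. Gbp5 and Gbp7 each carry 1 ISRE match and 2 GAS sites, Gbp3 carries 2 ISRE matches and Gbp2 carries 1, the last 2 without a GAS match. Of these genes, Gbp5 and Trim30a rose and Gbp3 fell, as the levels below show. Every stretch printed here holds an ISRE match, also those of Isg15, Ifit1, Irgm1, Gbp7 and Gbp2, which had no call. Among the printed genes a match thus does not separate those with a call from those without.

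Among the 38 genes, 4 were higher in Eaf2-/-Faslpr and 1 was lower. Ifi44, Oas2, Gbp5 and Trim30a rose, and Gbp3 fell. That makes 13.2% of the set, beside 12.1% of all tested genes (7.14% higher and 4.96% lower) by edgeR's quasi-likelihood test at an adjusted p under 0.05. The share called was thus close to the background. The same 5 genes, again 13.2%, were those whose libraries did not overlap between the groups, against 17.7% of all tested genes (9.71% higher and 7.96% lower). At an unadjusted p under 0.05, 12 of the 38 passed, against 24.9% of all tested genes. The median log2 fold change, Eaf2-/-Faslpr over Faslpr, was 0.10 for the set and -0.01 for all tested genes. The set had 28 positive and 10 negative values, and all tested genes 5859 positive and 6481 negative. Without Faslpr replicate 1, the small positive values of Ifit1, Oas3, Irgm1, Stat2 and Irf9 turned negative. The 33 genes without a call had log2 fold changes from -0.89 to 0.77, and 21 of them lay within 0.2 of no change.

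**Figure D1:**
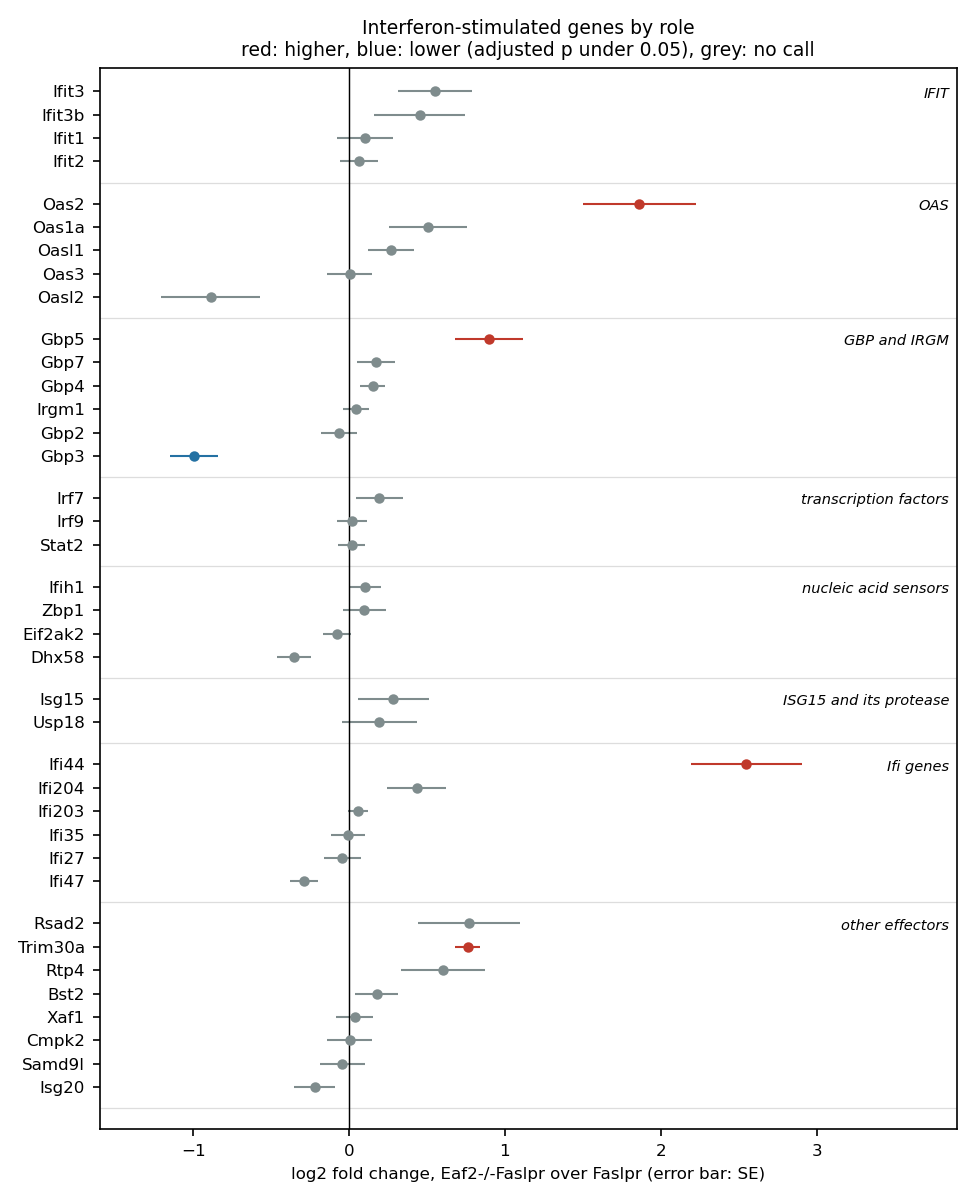
Log2 fold change of Eaf2-/-Faslpr over Faslpr (horizontal axis) for the 38 genes, grouped by role, with bars for the standard error. The 4 red points (Ifi44, Oas2, Gbp5, Trim30a) and the blue point (Gbp3) passed the test, and most of the 33 grey points sit within 0.2 of no change.

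The IFIT proteins bind viral RNA that lacks the host's cap marks, and none of the 4 Ifit genes passed, beside 12.1% of all tested genes. Ifit2 was the most abundant of them per length (5.93 FPKM, reads per kilobase and megaread, mean over 8 libraries). Its level was 22.9 ± 2.43 CPM (SD, n = 4) against 21.9 ± 3.13 CPM in Faslpr, a log2 fold change of 0.06 with an SE of 0.12. Ifit1 averaged 6.75 ± 0.472 CPM against 6.28 ± 1.38 CPM. Ifit3 stood at 6.87, 8.30, 5.95 and 6.57 CPM in Eaf2-/-Faslpr replicates 1 to 4 and at 2.75, 5.24, 6.44 and 4.46 CPM in Faslpr. Only Faslpr replicate 3 reached into the range of the other group, and the adjusted p was 0.184. Ifit3 shares 51.2% of its 50-base words with Ifit3b, so reads of this pair are divided by estimate. Summed, the pair averaged 9.10 ± 1.52 CPM against 6.30 ± 1.66 CPM, and the groups still overlapped (exact two-sided permutation p = 0.0571).

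The oligoadenylate synthetases sense double-stranded RNA and make the messenger that activates RNase L. Of the 5 genes, 1 passed, beside 12.1% of all tested genes. Oas2 had 2.63, 3.06, 4.08 and 2.48 CPM in Eaf2-/-Faslpr and 0.344, 0.596, 1.16 and 1.24 CPM in Faslpr. Every Eaf2-/-Faslpr library exceeded every Faslpr library. The means were 3.06 ± 0.719 and 0.833 ± 0.433 CPM (SD, n = 4), 3.64-fold apart, with a log2 fold change of 1.86, an SE of 0.36 and an adjusted p of 0.00827. These were few reads, 41 to 73.9 per library in the first group and 6 to 23 in the second, and at 0.534 FPKM Oas2 was the lowest of the 38 genes. Oas2 shares no 50-base word with another gene.

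Its neighbour on chromosome 5, Oas3, was the most abundant of the OAS genes (9.48 FPKM) and showed no such difference, at 44.0 ± 9.59 CPM against 43.9 ± 4.64 CPM. Oas1a averaged 12 ± 1.85 CPM against 8.42 ± 3.26 CPM (adjusted p = 0.249). It shares 57.6% of its 50-base words with Oas1g, and the sum of both was 12.5 ± 1.52 CPM against 9 ± 3.16 CPM (exact two-sided permutation p = 0.114). The 2 OAS-like genes leaned in opposite directions without passing. Oasl1 was at 10.7 ± 0.987 CPM against 8.86 ± 1.5 CPM, with an adjusted p of 0.303. Oasl2 was at 2.12 ± 0.712 CPM against 3.91 ± 1.24 CPM, with a log2 fold change of -0.89, an SE of 0.32 and an adjusted p of 0.106.

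The GBP proteins are GTPases that coat and break open the compartments of intracellular microbes, and IRGM1 is an immunity-related GTPase. Of 6 tested GBP and IRGM genes, 1 rose and 1 fell, beside 7.14% higher and 4.96% lower among all tested genes. Gbp5, which also promotes inflammasome assembly, stood at 32.2, 15.6, 18.1 and 17.2 CPM in Eaf2-/-Faslpr and at 12.6, 9.95, 10.5 and 11.5 CPM in Faslpr. The groups did not overlap, and replicate 1 of the first group was far above the other 3. The means were 20.8 ± 7.71 and 11.1 ± 1.15 CPM (SD, n = 4), 1.86-fold apart, with a log2 fold change of 0.90, an SE of 0.22 and an adjusted p of 0.0228. Leaving out Eaf2-/-Faslpr replicate 1 lowered the log2 fold change to 0.61 and kept the call. The call was lost without Faslpr replicate 2 (adjusted p = 0.0701) or Faslpr replicate 3 (0.0503).

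Gbp3 moved the other way. It stood at 53.7, 92.4, 94.5 and 84.1 CPM in Eaf2-/-Faslpr and at 152, 156, 169 and 168 CPM in Faslpr. All 4 Eaf2-/-Faslpr libraries lay below all Faslpr libraries, and replicate 1, the highest for Gbp5, was the lowest for Gbp3. The means were 81.2 ± 18.8 and 162 ± 8.53 CPM (SD, n = 4), 1.99-fold lower, with a log2 fold change of -0.99, an SE of 0.15 and an adjusted p of 0.00237. With 45.2 FPKM it was the most abundant gene of this class and the sixth of all 38 per length.

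The other 4 genes of the class did not pass. Gbp7 was at 104 ± 17.0 CPM against 91.8 ± 10.8 CPM, Gbp4 at 139 ± 7.84 CPM against 125 ± 11.8 CPM and Gbp2 at 49.6 ± 8.13 CPM against 51.8 ± 5.12 CPM. Irgm1, which regulates the other immunity-related GTPases, was at 65.9 ± 2.54 CPM against 63.8 ± 6.72 CPM. Gbp3 shares 3.75% of its 50-base words with Gbp7. The sum of Gbp3 and Gbp7 was 185 ± 5.06 CPM against 253 ± 11.5 CPM, again with no overlap (exact two-sided permutation p = 0.0286, the smallest possible), so the lower level did not vanish when the pair was added.

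**Figure D2:**
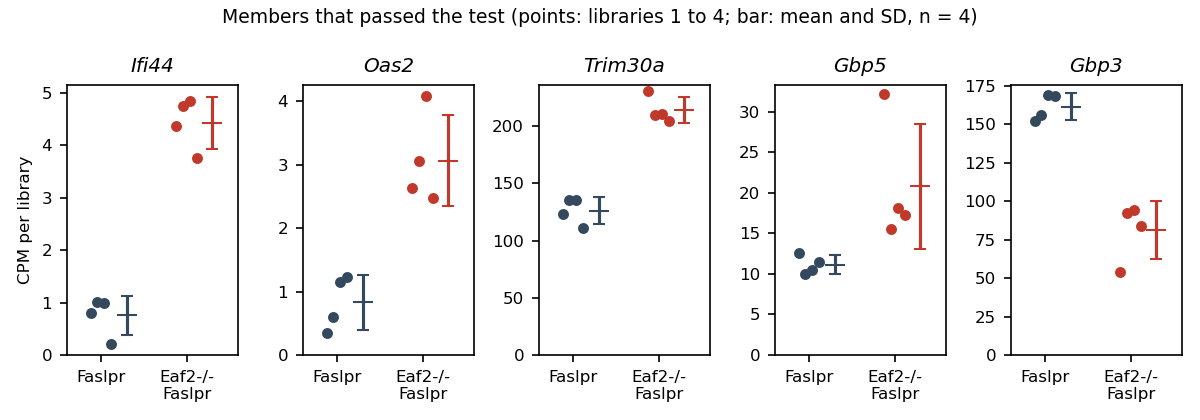
CPM of the 5 genes that passed, 1 panel each with its own axis from 0, with a point per library and a bar for mean and SD (n = 4). The groups are separate in every panel, Gbp3 is the only gene with Faslpr on top, and 1 Gbp5 library at 32.2 CPM stands above the rest.

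On chromosome 3 the gene order is Gbp5, Gbp7, Gbp3, Gbp2b, Gbp2. Along that row the log2 fold changes were 0.90, 0.17, -0.99, -2.96 and -0.06. Gbp2b, also written Gbp1, is not among the 40 genes and belongs to the list of other GTPases. It stood at 0.450, 0.601, 0.717 and 1.10 CPM in Eaf2-/-Faslpr and at 7.56, 7.51, 4.95 and 2.64 CPM in Faslpr, 7.76-fold lower (SE of the log2 fold change 0.39, adjusted p = 0.00112). Gbp2b shares 1.84% of its 50-base words with Gbp2, and the sum of both was 50.3 ± 7.98 CPM against 57.5 ± 6.37 CPM. That sum, most of it Gbp2, overlapped between the groups (exact two-sided permutation p = 0.2). The genes that fell, Gbp3 and Gbp2b, are adjacent, and the genes on either side of them, Gbp7 and Gbp2, had no call.

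**Figure D3:**
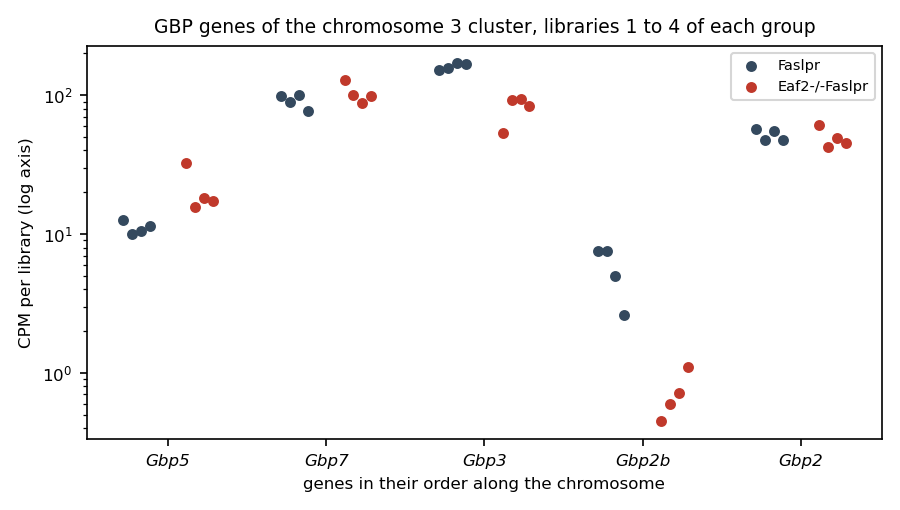
CPM per library on a log axis for the 5 Gbp genes of chromosome 3, in their order along the chromosome, with 4 points for each group. Eaf2-/-Faslpr points lie above Faslpr for Gbp5, below for Gbp3 and Gbp2b, and among them for Gbp7 and Gbp2.

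Set side by side, the IFIT and OAS genes (9 tested, no MX gene among them) had a median log2 fold change of 0.27, from -0.89 to 1.86, with 8 of 9 values positive. The 6 GBP and IRGM genes had a median of 0.10, from -0.99 to 0.90, with 4 of 6 positive. Of the first class 1 gene passed, and of the second 2 passed in opposite directions, beside 12.1% of all tested genes. With Ifi47 counted among the GTPases, the median of that class was 0.05. The median SE of a single gene was 0.24 in the first class and 0.12 in the second. The difference between the classes was not tested.

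STAT2, IRF9 and IRF7 are the factors that carry and amplify the type I signal, and their genes did not pass. Irf9, the most abundant of the 3 at 39.4 FPKM, was at 93.3 ± 5.26 CPM against 92.2 ± 11.8 CPM. Stat2 was at 96.7 ± 6.35 CPM against 95.5 ± 9.66 CPM, and Irf7 at 65.5 ± 6.44 CPM against 57.3 ± 12.8 CPM. Their log2 fold changes were 0.02, 0.02 and 0.19, with SEs of 0.10, 0.09 and 0.15. Without Faslpr replicate 1, the value of Irf7 was 0.05.

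The 4 nucleic acid sensors also had no call, beside 12.1% of all tested genes called. Zbp1, a sensor of Z-form nucleic acids and the most abundant of them at 21.3 FPKM, was at 35.3 ± 5.40 CPM against 32.9 ± 5.50 CPM. Ifih1, which encodes the RNA sensor MDA5, was at 34.9 ± 4.09 CPM against 32.4 ± 2.38 CPM. Eif2ak2, the kinase PKR, was at 83.5 ± 8.66 CPM against 88.2 ± 6.09 CPM. Dhx58, which encodes LGP2, came closest to the threshold of the genes without a call. It stood at 25.5, 27.3, 22.2 and 24.8 CPM against 26.5, 35.7, 31.1 and 34.4 CPM, with a log2 fold change of -0.36, an SE of 0.11 and an adjusted p of 0.0634. Faslpr replicate 1 fell within the range of the Eaf2-/-Faslpr libraries. Without that library Dhx58 passed as lower, with an adjusted p of 0.0264.

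ISG15 is a ubiquitin-like protein that is attached to other proteins, and USP18 removes it and dampens IFNAR signalling. Isg15 was at 7.75 ± 1.82 CPM against 6.35 ± 1.65 CPM and Usp18 at 16.9 ± 1.92 CPM against 14.8 ± 5.91 CPM. Adjusted p were 0.499 and 0.682.

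Of the 6 Ifi genes, 1 passed, beside 12.1% of all tested genes. Ifi44, an antiviral gene, had 4.37, 4.75, 4.85 and 3.75 CPM in Eaf2-/-Faslpr and 0.802, 1.01, 0.991 and 0.215 CPM in Faslpr. The lowest library of the first group was above the highest of the second. The means were 4.43 ± 0.497 and 0.755 ± 0.372 CPM (SD, n = 4), 5.85-fold apart, with a log2 fold change of 2.55, an SE of 0.35 and an adjusted p of 0.00140. This was the largest change among the 38 genes and, at 0.950 FPKM, one of the lowest levels. The libraries held 68.1 to 88.1 estimated reads in the first group and 4.32 to 18.3 in the second. The promoter window of Ifi44 held neither an ISRE nor a GAS match.

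The abundant Ifi genes did not follow Ifi44. Ifi27, the highest of the 38 at 109 FPKM, was at 104 ± 10.7 CPM against 108 ± 17.3 CPM. Ifi203, a member of the PYHIN family, was at 334 ± 5.38 CPM against 321 ± 18 CPM, and Ifi35 at 35.1 ± 3 CPM against 35.3 ± 5.16 CPM. Ifi204, of the same family as Ifi203, was at 53.2 ± 10.6 CPM against 39.4 ± 10.2 CPM, with an adjusted p of 0.185. Ifi204 shares 14.8% of its 50-base words with Ifi211, and their sum was 63 ± 12 CPM against 47.1 ± 10.6 CPM (exact two-sided permutation p = 0.0857). Ifi47, a GTPase of the IRG family, leaned the other way, at 116 ± 15.0 CPM against 142 ± 6.82 CPM. Its log2 fold change was -0.29, with an SE of 0.09 and an adjusted p of 0.0696.

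Of the 8 other effectors, 1 passed, a share close to the 12.1% of all tested genes. Trim30a, which restrains inflammasome and NF-kB signalling, stood at 230, 210, 210 and 205 CPM in Eaf2-/-Faslpr and at 123, 135, 135 and 111 CPM in Faslpr. The groups were far apart, and neither contained a stray library. The means were 214 ± 11.4 and 126 ± 11.5 CPM (SD, n = 4), 1.69-fold apart, with a log2 fold change of 0.76, an SE of 0.08 and an adjusted p of 0.000294. At 45.5 FPKM it was also the one gene among the 4 that rose with a level near the top of the set. Trim30a shares 5.98% of its 50-base words with its neighbour Trim30d, and the sum of both was 265 ± 13.9 CPM against 137 ± 13.9 CPM, 1.94-fold apart (exact two-sided permutation p = 0.0286, the smallest possible).

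The other effectors overlapped between the groups. Samd9l, a brake on protein synthesis and the most abundant at 54.0 FPKM, was at 281 ± 49.8 CPM against 289 ± 46.0 CPM. Rsad2, which encodes the antiviral enzyme viperin, was at 4.49 ± 1.15 CPM against 2.63 ± 1.18 CPM, a log2 fold change of 0.77 with an SE of 0.33 and an adjusted p of 0.173. Its neighbour on chromosome 12, Cmpk2, was at 21.5 ± 1.93 CPM against 21.4 ± 4.49 CPM. Rtp4 was at 10.6 ± 2.04 CPM against 6.98 ± 2.8 CPM (adjusted p = 0.2), and without Faslpr replicate 3 it passed with an adjusted p of 0.0481. Bst2, which encodes the virus-tethering protein tetherin, was at 16.5 ± 1.22 CPM against 14.6 ± 2.70 CPM. The nuclease gene Isg20 was at 11.2 ± 1.04 CPM against 13.0 ± 1.87 CPM, and the apoptosis-linked gene Xaf1 at 36.1 ± 4.36 CPM against 35.2 ± 4.90 CPM.

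Libraries of 1 group also differed from each other across many of the genes. Faslpr replicate 1 was the lowest of the 8 libraries in 18 of the 38 genes and in 5 of the 9 IFIT and OAS genes. Its median deviation from each gene's mean was -0.25 on the log2(CPM + 0.5) scale over all 38 genes and -0.50 over the IFIT and OAS genes. Faslpr replicate 3 was the highest library in 13 of the 38. Eaf2-/-Faslpr replicate 2 was the highest in 4 of the 9 IFIT and OAS genes, and replicate 1 of that group in 4 of the 6 GBP and IRGM genes. Without Faslpr replicate 1, the median log2 fold change of the IFIT and OAS genes was 0.16 instead of 0.27, and that of the GBP and IRGM genes 0.06 instead of 0.10.

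**Figure D4:**
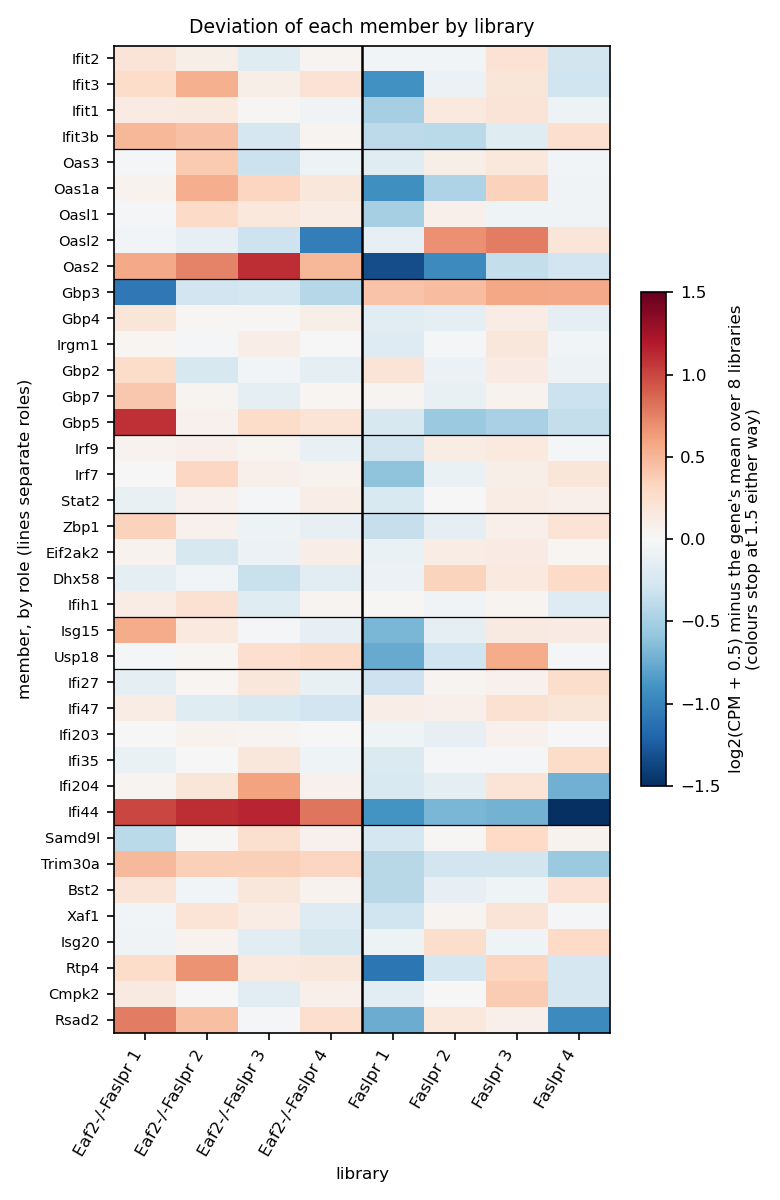
Deviation of each of the 38 genes from its own mean over 8 libraries, on the log2(CPM + 0.5) scale, with a column per library and lines between roles. The column of Faslpr replicate 1 is blue for most genes (median -0.25), and Ifi44, Oas2, Gbp5, Trim30a and Gbp3 change colour at the line between the groups.

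Eaf2-/-Faslpr replicate 3, the library with the highest sums of B cell, macrophage and neutrophil markers, was left out in turn. This removes the highest library but not the difference in B cell markers, which summed to 333 to 354 CPM in the other 3 Eaf2-/-Faslpr libraries against 66.6 to 138 CPM. Without replicate 3 the log2 fold changes were 2.50 for Ifi44, 1.69 for Oas2, 0.96 for Gbp5, 0.77 for Trim30a and -1.08 for Gbp3, and all 5 still passed. Ifi44, Oas2, Trim30a and Gbp3 passed whichever of the 8 libraries was left out.

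Upstream of the set, 2 of 10 listed interferon genes were in the table used here, and 1 of them, Ifng, had enough reads to test. It was at 25.5 ± 9.89 CPM against 31.3 ± 7.61 CPM, with an adjusted p of 0.564. The counts in the pathway lists that follow stand beside a background of 12.1% of all tested genes called. Of 8 tested receptor and kinase genes, 1 rose and none fell, a share close to that background. Ifngr2, a chain of the interferon gamma receptor, was at 5.98 ± 1.88 CPM against 2.64 ± 0.585 CPM (2.27-fold, adjusted p = 0.0123). Jak1, the most abundant at 203 FPKM, was at 962 ± 93.6 CPM against 1014 ± 65.9 CPM, with an adjusted p of 0.654.

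Of 8 signal factors, 3 rose and 1 fell, beside 7.14% higher and 4.96% lower among all tested genes. Irf2, a repressor that competes at ISRE sites and the most abundant of the list at 134 FPKM, stood at 236, 281, 250 and 272 CPM in Eaf2-/-Faslpr and at 383, 413, 351 and 417 CPM in Faslpr. The groups did not overlap, and the fold was 1.51 lower (SE of the log2 fold change 0.08, adjusted p = 0.00148). Irf5 rose from 2.57 ± 1.32 to 9.25 ± 3.19 CPM (3.58-fold, adjusted p = 0.00734) and Irf8 from 46.6 ± 3.27 to 65.2 ± 9.09 CPM (1.40-fold, adjusted p = 0.0130). Irf5 and Irf8 are also expressed by B cells, whose 12 markers were all higher in the same group, and by macrophages, of whose 10 tested markers 3 were higher. The part of those cells in these 2 results was not tested, nor was it for the other genes of the pathway lists. Irf1, the third that rose, was at 232 ± 32.1 CPM against 171 ± 27.1 CPM with overlapping libraries and an adjusted p of 0.0481. Its call held among the 8 fits that left out a library only without Eaf2-/-Faslpr replicate 2 or Faslpr replicate 3, and adjusted p reached 0.143 in the others.

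Among 12 tested upstream sensors and adaptors, 3 rose and none fell, beside the same 7.14% higher and 4.96% lower over all tested genes. Sting1, the adaptor that relays cytosolic DNA to interferon production, stood at 45.4, 43.6, 45.0 and 42.3 CPM against 22.1, 22.0, 29.6 and 26.4 CPM, 1.76-fold higher (SE of the log2 fold change 0.10, adjusted p = 0.000818). Tlr7, a receptor for single-stranded RNA, was 1.61-fold higher (adjusted p = 0.0179), and Ikbke, a kinase of interferon regulatory factors and the most abundant at 77.5 FPKM, was 1.23-fold higher (adjusted p = 0.0289). Tlr7 lost its call without Faslpr replicate 1 (adjusted p = 0.0519) or Faslpr replicate 2 (0.0541). Ikbke kept its call only without Eaf2-/-Faslpr replicate 1 or Faslpr replicates 3 or 4 among the 8 fits that left out a library, and adjusted p reached 0.101 in the others. Of 12 negative regulators, 2 rose and none fell, again beside 7.14% and 4.96% over all tested genes. Socs3, an inhibitor of JAK signalling, was at 27.7 ± 15.0 CPM against 3.38 ± 1.72 CPM (8.13-fold, adjusted p = 0.00140). The phosphatase gene Ptpn6 was at 86.1 ± 12 CPM against 40.1 ± 8.93 CPM (2.14-fold, adjusted p = 0.00168), and Ptpn1, the most abundant at 71.2 FPKM, had an adjusted p of 0.168.

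Of 10 other GBP and IRG genes, 1 fell (Gbp2b, above) and 1 rose, beside 12.1% of all tested genes called in either direction. Gbp10 was at 2.73 ± 1.44 CPM against 0.440 ± 0.536 CPM with an adjusted p of 0.0404. Among the 8 fits that left out a library it passed only without Eaf2-/-Faslpr replicate 2 or Faslpr replicate 3, and adjusted p reached 0.105 in the others. Gbp10 shares 73.3% of its 50-base words with Gbp6. Summed with Gbp6, it was at 41.0 ± 10.5 CPM against 29.4 ± 8.76 CPM, with overlapping groups (exact two-sided permutation p = 0.114). Gbp9, the most abundant of that list at 35.5 FPKM, had an adjusted p of 0.349. Of 37 other tested interferon-stimulated genes, 3 rose and 1 fell, a share close to the 12.1% over all tested genes. Ly6e, which restricts virus entry, was at 331 ± 26.6 CPM against 198 ± 24.3 CPM (1.67-fold, adjusted p = 0.00109), and Ifi30, a lysosomal reductase of antigen presentation, at 18.9 ± 7.74 CPM against 8.82 ± 0.775 CPM (2.14-fold, adjusted p = 0.0142). Parp12 fell from 26.0 ± 2.83 to 16.6 ± 1.55 CPM (1.57-fold, adjusted p = 0.00399). Ly6c2, the most abundant at 376 FPKM, was at 298 ± 59.0 CPM against 291 ± 57.6 CPM.

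Trim30b, the last of the 3 that rose, lies in the same chromosome 7 row as Trim30a, where the order is Trim30b, Trim30c, Trim30a, Trim30d. It stood at 4.50, 3.60, 4.96 and 3.26 CPM in Eaf2-/-Faslpr and at 0.115, 1.19, 0.0550 and 1.13 CPM in Faslpr, 6.5-fold apart (adjusted p = 0.0167). Trim30d stood at 53.3, 56.6, 50.9 and 45.6 CPM and at 0.344, 21.2, 0.385 and 21.4 CPM. Its groups did not overlap, but the Faslpr libraries split so widely that the test gave an adjusted p of 0.121. Faslpr replicates 1 and 3 were the low ones for both Trim30b and Trim30d, while Trim30a was at 123 and 135 CPM in those libraries and at 135 and 111 CPM in the other 2. All 4 genes of this row, 3 of them chosen after their values were seen, had every Eaf2-/-Faslpr library above every Faslpr library, as did 9.71% of all tested genes. Of the 3 neighbours of Trim30a, Trim30b passed the test, and Trim30c and Trim30d did not.

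**Figure D5:**
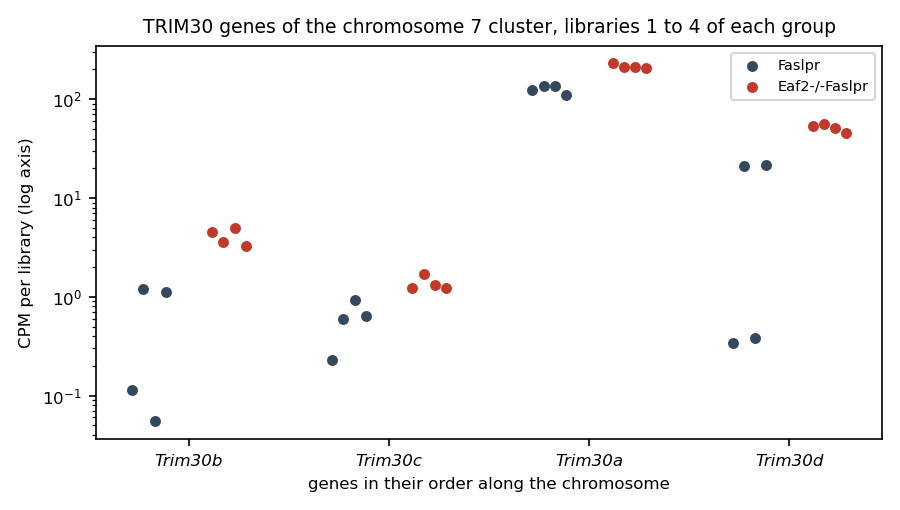
CPM per library on a log axis for the 4 Trim30 genes of chromosome 7, in their order along the chromosome, with 4 points for each group. Eaf2-/-Faslpr points lie above Faslpr points for each gene, and for Trim30b and Trim30d 2 Faslpr libraries lie far below the other 2.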

How the data were processed

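RNA was extracted with TRIzol and made into DNBSEQ libraries from sorted spleen cells, per the labels' protocols. The authors' deposited table gave FPKM and estimated counts, RSEM's expected counts without depth scaling, per gene and library. The build was GRCm39 and the tools were RSEM 1.3.1, HISAT2 2.2.1 and Bowtie2 2.4.5, per the submitters' processing notes, without their roles. No source used here gives the annotation, strand setting or filters. Among all deposited estimated counts, 36.8% were whole within 0.001, so reads that match several genes were divided by estimate. A further 16 per-sample columns were not used.

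Estimated counts were rounded, and genes were kept by edgeR's filterByExpr (12340 of 17384). Libraries were scaled with TMM factors and compared by edgeR's quasi-likelihood test (edgeR 4.0.16 in R 4.3.3) over all 8 libraries with no covariate. Benjamini-Hochberg adjustment ran over all tested genes, with a threshold of 0.05. Standard errors are the size of the log2 fold change over the square root of its F statistic. The authors' FPKM served only to compare levels between genes. Alternatives were DESeq2 size factors, DESeq2 1.42.0, limma-voom (limma 3.58.1), no filter on low counts, a replicate block, each library left out in turn and both libraries numbered 4 left out. Code was tested on simulated data. Sampling noise did not account for the spread within groups, where chi-square per degree of freedom ran from 9.46 to 37.2.

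Sample titles gave the groups and the replicate numbers. The 40 genes, their roles and the pathway and marker lists were chosen with earlier results of these data known. Named were Eaf2, every gene of the set, up to 3 passing genes of each pathway list by smallest p and the most abundant gene of each list by FPKM. Irf1, Trim30b, Trim30c, Trim30d, Ifi27l2a, Ifi44l, Ifnar1, Ifnar2 and the marker genes mentioned were named after their values were seen. Some genes of the lists are not reported here. Shared sequence was counted as 50-base words in GENCODE transcripts of GRCm38. Gene order, chromosomes and promoter windows came from RefSeq on GRCm38.p6, another build than the authors', and were matched by symbol or gene number. The bases after the start lay in the gene's own transcript for 29 of the 37 windows and on the other strand for 0.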

Additional observations from a re-analysis of the deposited data

Results flagged for a closer look

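Each gene's 4 libraries of a group were checked for a library far from the other 3, by Dixon's 95% critical value for the gap to the nearest library over the group's range. Of 78 such sets, 2 met this limit, and chance alone gives about 1 in 20. Gbp4 in Faslpr replicate 3 was at 142.589 CPM, while the other 3 Faslpr libraries lay between 117.8 and 120.1 CPM. Gbp4 had no call. Gbp5 in Eaf2-/-Faslpr replicate 1 was at 32.2492 CPM, while the other 3 lay between 15.6 and 18.1 CPM. Without that library the log2 fold change of Gbp5 was 0.61 instead of 0.90, and the gene still passed.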

How the results depend on the processing

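Ifi44, Oas2, Trim30a and Gbp3 kept their direction and their call under all 14 alternatives. Gbp5 lost its call under 3, without Faslpr replicate 2 or 3 and without both libraries numbered 4 (adjusted p = 0.0620). The count of higher genes in the set was 3 to 4 when 1 library was left out and that of lower genes 1 to 2. DESeq2 called 3 lower, adding Dhx58 and Ifi47, with 1898 calls over all genes against 1493. Leaving out 1 library gave 990 to 1599 calls over all genes, the fewest without Faslpr replicate 2. The median log2 fold change of the IFIT and OAS genes ranged from 0.16 to 0.34 and that of the GBP and IRGM genes from 0.05 to 0.17 when 1 library was left out. The causes were not tested.

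Replicate numbers did not pair the samples: same-numbered libraries had correlations of deviations of 0.155, 0.176, 0.0556 and -0.0605, and 2 of 4 matched their own number best. With a replicate block, 1425 genes passed, and 5 genes of the set were higher, with Ifi204 added (adjusted p = 0.0324), and 1 lower. The medians were 0.28 and 0.10, and Eaf2 passed.

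Small changes near 0 reversed. Without both libraries numbered 4, the log2 fold change was -0.012 for Ifit2, 0.0774 for Ifi27, 0.12 for Ifi35 and -0.10 for Cmpk2. Oas3 was at -0.013 by limma-voom, -0.0079 with no filter and -0.012 with the replicate block. Ifi35 was at 0.00012 by limma-voom and Cmpk2 at -0.0082 with no filter. With 1 library left out, the range was -0.0331 to 0.19 for Ifit1, -0.011 to 0.16 for Ifit2, -0.15 to 0.10 for Oas3, -0.18 to 0.0014 for Gbp2, -0.0092 to 0.11 for Irgm1, -0.0512 to 0.0559 for Stat2 and -0.0641 to 0.0690 for Irf9. It was -0.0075 to 0.19 for Zbp1, -0.14 to 0.0457 for Ifi27, -0.0780 to 0.0941 for Ifi35, -0.0749 to 0.16 for Cmpk2, -0.0509 to 0.11 for Xaf1, -0.14 to 0.0697 for Samd9l and -0.0769 to 0.13 for Ly6c2.

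Oas2 and Ifi44 rest on fewer than 25 reads in each Faslpr library, so their folds are imprecise. Reads of Ifit3 and Ifit3b, Oas1a and Oas1g, and Gbp6 and Gbp10 cannot be told apart with certainty.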

Other observations

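Relatives of Ifi44 and Ifi27 outside the set were looked up after the values of the set had been seen. Ifi44l, a paralog of Ifi44, stood at 2.18, 3.11, 3.25 and 2.37 CPM in Eaf2-/-Faslpr and at 0.745, 1.13, 0.715 and 0 CPM in Faslpr. The groups did not overlap, the means were 2.73 ± 0.530 and 0.648 ± 0.472 CPM (SD, n = 4), and edgeR gave an adjusted p of 0.0389. The call held in 2 of the 8 fits that left out a library, those without Faslpr replicate 2 or 4, and the highest adjusted p was 0.0907. Ifi27l2a, a relative of Ifi27, was at 33.7 ± 7.12 CPM against 18.7 ± 9.09 CPM with an adjusted p of 0.134. Its Faslpr libraries stood at 7.34, 15.7, 23.6 and 28.0 CPM, and the lowest Eaf2-/-Faslpr library at 26.2 CPM lay within their range.

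Trim30c, the remaining gene of the Trim30 row, stood at 1.22, 1.69, 1.32 and 1.21 CPM against 0.229, 0.596, 0.936 and 0.646 CPM, with an adjusted p of 0.0631. The receptor genes for type I interferon had no call. Ifnar1 was at 201 ± 12.7 CPM against 182 ± 5.18 CPM and Ifnar2 at 87.3 ± 4.62 CPM against 79.4 ± 4.63 CPM.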
